A study of Mus musculus with 12 samples.

Results

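Antibiotic-treated young dendritic cells (Young-Abx) were compared with untreated young dendritic cells (Young) on 6 of the 12 arrays of the study, chosen by the sample titles, with 3 arrays in each group. Both groups came from female C57BL/6 mice with a labelled age of 2 months. The Young-Abx mice had received ampicillin, neomycin sulfate, metronidazole and vancomycin in their drinking water for 21 days, and the Young mice had received no agent. Bone marrow cells of both groups were cultured with GM-CSF and IL-4 in a medium that contained penicillin and streptomycin, the loosely adherent cells were harvested, and LPS was added at 1 µg/ml for 24 h. Penicillin and streptomycin in the medium were thus shared by both groups, no array without LPS was analysed here, and the study describes each data set as a pool of 3 mice and the 3 sets as independent. The other 6 arrays (Old and Old-LP, from mice aged 24 months, the latter given Lactobacillus plantarum) entered the normalization and the fit, which shares its estimate of the spread, and give the levels in Old set beside some results.

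Dendritic cells (DCs) take up antigen, sense microbial products through Toll-like receptors and present peptides to T cells. LPS, the ligand of TLR4, acts through MyD88 and NF-κB and drives maturation, in which DCs raise co-stimulatory molecules and secrete cytokines and chemokines. Bone marrow cultured with GM-CSF and IL-4 gives DCs together with macrophages, granulocytes and remaining progenitors, and it can carry megakaryocytes, erythroid precursors and stromal cells of the marrow into the culture. The comparison asks how the transcripts of the LPS-matured culture differed after the donors had received antibiotics.

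The DC label was checked first. Of 12 DC markers, 9 were well above background on all 6 arrays and 0 passed the test in either direction, with a median log2 fold change of -0.16. Itgax, which encodes CD11c, had normalised log2 signals of 14.32, 14.34 and 14.46 on Young arrays A, B and C and of 14.09, 14.16 and 14.39 on Young-Abx arrays A, B and C. Ccr7, the receptor that guides mature DCs to lymph nodes, had signals of 15.84 to 16.23 on the 6 arrays. Xcr1 and Cd209a, which mark particular DC subsets, were not well above background on any of the 6 arrays. Macrophage transcripts were also present, with 11 of 13 markers well above background on all 6 arrays.

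The arrays lay on different slides, and this touches every result. Slide 1 held replicates A and B of both groups and slide 2 held replicate C of both groups. The C arrays of Old and Old-LP, which share the fit, lay on slide 3. On slide 1, the share of spots called well above background by the scanner software was 61.8 to 65.3%, and on slide 2 it was 44.0 and 46.0%. Over 18667 bright probes, the median absolute log2 difference was 0.092 between Young A and Young B and 0.103 between Young-Abx A and Young-Abx B. Repeated spots within 1 of these 4 arrays differed by 0.036 to 0.053. Young and Young-Abx arrays differed by 0.186 to 0.215 on slide 1 and by 0.246 on slide 2, and the C arrays differed from the A and B arrays of their own group by 0.686 to 0.767. Young-Abx B lay nearer to 1 array of the Old group (Old A, 0.079) than to Young-Abx A, and the 15 genes with the largest rise stood, on slide 1, at 76.1 to 119% of their Old level in Young-Abx and at 4.82 to 24.2% in Old-LP. What this likeness to Old has to do with the differences from Young was not tested, and it touches every difference given here. A and B were counted as separate samples, as labelled and as the study describes the sets. Because they lay so close, counts are also given with A and B averaged to 1 sample.

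More probes rose than fell after antibiotics. Of 56605 probes, 557 (0.984%) passed both thresholds, which were an adjusted p of 0.05 or less by limma with Benjamini-Hochberg adjustment and a log2 fold change of 0.5 or more in either direction. Of these, 462 (0.816% of all probes) rose and 95 (0.168%) fell in Young-Abx, so that 82.9% of the called probes rose. That share was 69.0% with the log2 table of the authors (1031 called) and 70.5% after a normexp background correction (946 called). It was 95.9% without a replicate block (195 called) and 62.8% on slide 1 alone (2012 called). At an unadjusted p it was 52.6% (4432 called), and 48.4% of all genes had a positive fold change at their brightest probe. The called probes named 372 genes, of which 297 rose and 75 fell. A total of 69 of the risen probes were not well above background on any Young array, while 272 risen and 75 fallen probes were well above background on all 6 arrays.

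All 557 called probes had the same sign on slide 1 and on slide 2, which a fit over both slides with the letter as block favours by its choice of probes. The median difference of the risen probes was 2.07 on the log2 scale on slide 1 and 1.99 on slide 2, and that of the fallen probes was -1.23 on slide 1 and -1.02 on slide 2. Of the called probes, 427 risen and 67 fallen ones had groups that did not overlap. The model holds the replicate letter as a block, and its letter C joins slide 2 with slide 3, which held the C arrays of Old and Old-LP. With the slide as block in place of the letter, 1156 probes were called. With no block, 195 probes were called (187 higher and 8 lower), all of them among the 557. With A and B averaged to 1 sample, 0 probes were called by limma with the block (smallest adjusted p 0.261, with 2388 probes past the fold threshold at an unadjusted p under 0.05) and 0 without it (smallest adjusted p 0.477, with 844 probes). Leaving out Young A, B or C left 139, 178 and 391 called probes, and leaving out Young-Abx A, B or C left 155, 142 and 291.

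**Figure D1:**
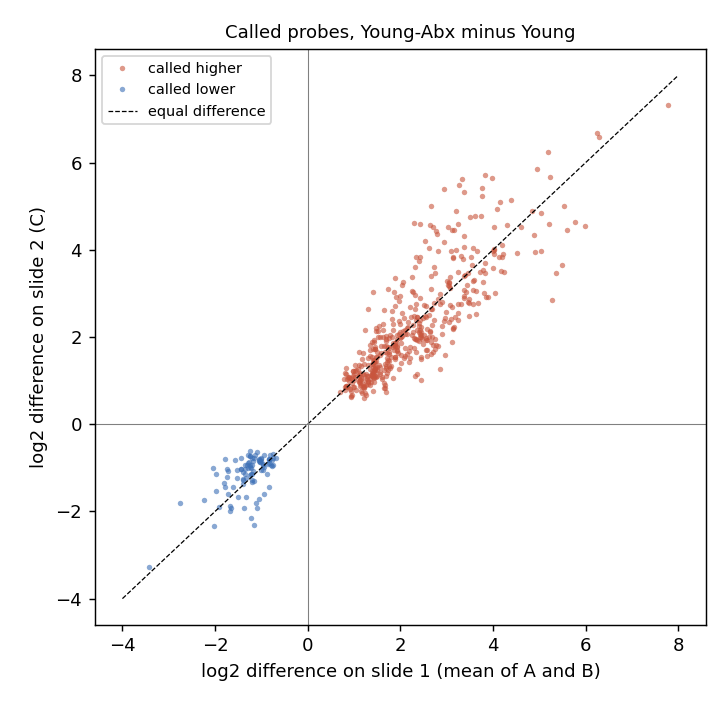
Log2 difference between Young-Abx and Young for each of the 557 called probes, on slide 1 (mean of replicates A and B, x axis) and on slide 2 (replicate C, y axis). All risen probes (red) lie above 0 and all fallen probes (blue) below 0 on both axes, along the dashed line of equal difference, although the C arrays were the dimmer ones.

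Genes of megakaryocytes and platelets formed the list with the most called members. Platelets stop bleeding by binding von Willebrand factor through the GPIb-IX-V receptor and then aggregating through integrin αIIbβ3. Of 13 measured genes of this list, 7 rose and 0 fell, against 1.11% of all 24232 genes rising and 0.264% falling at their brightest probe. All 13 fold changes were positive, with a median of 1.49 on the log2 scale against -0.0093 over all genes. The summed level of the list was 16.09 to 16.34 (log2) on the Young arrays and 17.01 to 17.16 on the Young-Abx arrays, and 10 of the 13 genes were well above background on all 6 arrays. In RNA of a whole culture, more cells of a type and more RNA per cell cannot be told apart.

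The 4 subunits of the GPIb-IX-V receptor all rose. Gp1ba, the subunit that binds von Willebrand factor, had log2 signals of 9.03, 8.94 and 10.17 on Young A, B and C and of 11.79, 11.64 and 12.57 on Young-Abx A, B and C. The groups did not overlap, and the log2 fold change was 2.62 ± 0.26 (SE, adjusted p = 0.00476 by limma). Gp1bb, its disulfide-linked partner, had signals of 6.20, 6.35 and 5.86 in Young against 8.55, 8.49 and 8.91 in Young-Abx, a log2 fold change of 2.51 ± 0.26 (SE, adjusted p = 0.00526). Gp9, needed to bring the complex to the surface, had signals of 9.17, 8.97 and 9.60 in Young against 11.63, 11.62 and 11.31 in Young-Abx, a log2 fold change of 2.27 ± 0.37 (SE, adjusted p = 0.0352). Gp5 had signals of 7.46, 7.74 and 8.83 in Young against 9.84, 10.09 and 10.77 in Young-Abx, a log2 fold change of 2.22 ± 0.20 (SE, adjusted p = 0.00311). For each of the 4 genes the lowest Young-Abx array was above the highest Young array.

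The promoter windows of these 4 genes are shown because the genes moved together and encode 1 receptor. Each runs from 250 bases before to 50 bases after the annotated start, is taken from RefSeq on build GRCm38.p6, and is printed 5′ to 3′ on the strand of the gene, with the letters AGATAA or their complement TTATCT, a core bound by GATA factors, in capitals. The windows are Gp1ba at chr11:70638872-70639171, plus strand, Gp1bb at chr16:18622354-18622653, minus strand, Gp5 at chr16:30310732-30311031, minus strand, and Gp9 at chr6:87777820-87778119, plus strand.
Gp1ba: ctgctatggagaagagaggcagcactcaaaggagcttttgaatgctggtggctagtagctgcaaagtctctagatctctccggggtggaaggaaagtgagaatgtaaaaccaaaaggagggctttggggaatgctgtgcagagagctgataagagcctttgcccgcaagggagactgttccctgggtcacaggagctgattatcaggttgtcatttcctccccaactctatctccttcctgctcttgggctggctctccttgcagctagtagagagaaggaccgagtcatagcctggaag
Gp1bb: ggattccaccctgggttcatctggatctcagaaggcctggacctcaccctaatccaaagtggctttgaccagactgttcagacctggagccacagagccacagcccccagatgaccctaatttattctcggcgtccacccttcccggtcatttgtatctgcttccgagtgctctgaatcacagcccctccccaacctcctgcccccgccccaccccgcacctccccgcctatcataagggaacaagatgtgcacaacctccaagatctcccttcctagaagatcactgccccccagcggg
Gp5: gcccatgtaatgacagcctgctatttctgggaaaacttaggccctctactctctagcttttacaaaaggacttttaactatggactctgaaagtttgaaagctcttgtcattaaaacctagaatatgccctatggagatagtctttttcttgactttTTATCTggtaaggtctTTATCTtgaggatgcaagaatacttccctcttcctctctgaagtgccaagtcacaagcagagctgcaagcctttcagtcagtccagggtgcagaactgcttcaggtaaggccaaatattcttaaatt
Gp9: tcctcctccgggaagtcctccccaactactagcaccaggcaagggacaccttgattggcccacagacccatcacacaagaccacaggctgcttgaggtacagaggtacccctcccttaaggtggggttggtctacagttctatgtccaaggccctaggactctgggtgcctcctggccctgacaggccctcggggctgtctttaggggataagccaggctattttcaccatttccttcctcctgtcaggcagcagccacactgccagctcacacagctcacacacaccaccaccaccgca
Gp5 held AGATAA 2 times, starting 93 and 77 bases before the start, and the windows of the other 3 genes did not hold these letters. Other letters that GATA factors may bind were not searched. Over the 7 risen genes of the list, 6 had a window and 1 window (16.7%) held AGATAA, against 11.2% of 32851 windows in all. The core of the interferon-stimulated response element and the letters GGGNNTTCC, a form read by NF-κB, were in 0 of the 6 windows, against 3.44 and 5.82% of all windows. Both strands were searched. Over the 15 genes with the largest rises described further on, 11 had a window, and 0, 2 and 1 of the 11 held the interferon core, GGGNNTTCC and AGATAA. These are matches of letters, with no binding measured.

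The other 3 called genes of the list were those of secreted or granule proteins and of a platelet receptor. Ppbp, a platelet chemokine, had log2 signals of 12.56, 12.48 and 14.03 in Young and of 14.17, 14.23 and 15.14 in Young-Abx (log2 fold change 1.49 ± 0.19 SE, adjusted p = 0.011). Vwf, the adhesive protein that GPIb binds, had signals of 12.40, 12.35 and 13.41 against 13.79, 13.80 and 14.84 (log2 fold change 1.42 ± 0.12 SE, adjusted p = 0.00215). Treml1, a receptor of platelet granules, had signals of 11.10, 11.09 and 11.66 against 12.95, 13.02 and 13.51 (log2 fold change 1.88 ± 0.22 SE, adjusted p = 0.0086). For Ppbp the gap between the groups was the narrowest of the 3, with Young C at 14.03 and Young-Abx A at 14.17.

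The 6 remaining genes of the list did not pass at their brightest probe, although the second probe of Gp6, a collagen receptor, did (log2 fold change 1.58). Itga2b, the αIIb chain of the fibrinogen receptor, had a log2 fold change of 1.91 with an adjusted p of 0.0606, and Clec1b, Gp6 and Tubb1 had 1.35, 1.43 and 1.26. Itgb3, the β3 chain, which phagocytes also use and which stood in the list of phagocytic receptors, did pass, with signals of 12.64, 12.66 and 13.37 in Young and of 14.05, 14.23 and 15.02 in Young-Abx (log2 fold change 1.55 ± 0.17 SE, adjusted p = 0.00766). Pf4, a platelet chemokine that macrophages of such cultures also express, had signals of 15.09 to 16.01 in Young and of 15.30 to 16.48 in Young-Abx, which overlapped. The call of Gp9 was lost under every omission of an array. Gp1bb and Gp9 were also called without the replicate block, and the other 5 called genes were not, with adjusted p of 0.0522 for Gp1ba, 0.126 for Gp5, 0.68 for Ppbp, 0.702 for Vwf and 0.0658 for Treml1. Without Young A, Young B, Young-Abx A or Young-Abx B, 4 of the 7 were called in each case (Gp1ba, Gp1bb, Gp5 and Vwf were called under every one of the 6 omissions).

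Further called genes are known from platelets and were picked after their values were seen, so they are a description. P-selectin (Selp), which platelets and endothelium show on activation, rose at 3 probes by 2.83 to 3.29 on the log2 scale. Mmrn1, which binds coagulation factor V in platelet granules, rose by 3.23 with signals of 7.87 to 8.06 in Young and of 10.86 to 11.40 in Young-Abx. Mpig6b, an inhibitory platelet receptor, rose by 2.60, the thromboxane receptor Tbxa2r by 2.19, the platelet lipoxygenase Alox12 by 2.10, the ATP-gated channel P2rx1 by 1.65 and 1.48 at its 2 probes, and coagulation factor F5 by 1.64.

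**Figure D2:**
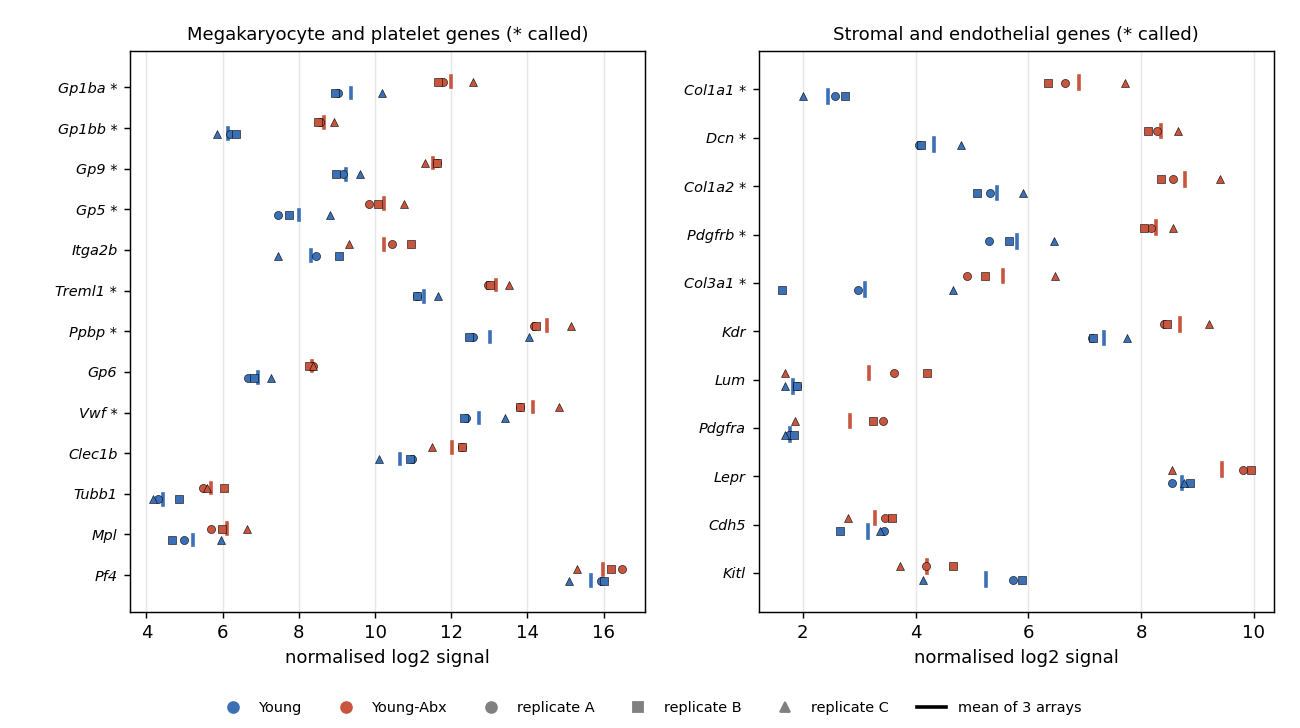
Normalised log2 signal (x axis) of each gene of the megakaryocyte and platelet list (left) and of the stromal and endothelial list (right) on the 3 Young arrays (blue) and the 3 Young-Abx arrays (red), with symbols for replicates A, B and C and a bar at the mean. An asterisk marks the 7 platelet genes and the 5 stromal genes that passed the test; in each of them the red points lie to the right of the blue ones.

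Of 14 measured erythroid markers, 4 rose and 0 fell, against 1.11 and 0.264% of all genes, and 7 of the 14 fold changes were negative, with a median of 0.12. Gata1, the transcription factor of erythroid cells and megakaryocytes, had log2 signals of 9.70, 9.72 and 9.32 in Young and of 11.31, 11.34 and 11.32 in Young-Abx (log2 fold change 1.74 ± 0.28 SE, adjusted p = 0.0366). Tal1, a partner of GATA1, rose from signals of 9.18 to 9.71 in Young to 10.33 to 10.60 in Young-Abx (adjusted p = 0.0408), and the erythropoietin receptor Epor rose by 1.88 and the transferrin receptor Tfrc by 1.20. Zfpm1, the GATA1 cofactor FOG1, chosen after its values were seen, rose by 1.65 and 1.95 at 2 probes.

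The globin genes did not pass. Hba-a1 had signals of 10.26, 10.23 and 11.57 in Young and of 9.60, 9.71 and 11.27 in Young-Abx, and Hbb-bt of 8.72, 8.42 and 8.52 against 6.65, 6.51 and 7.66, and neither passed the test. The globin probes belong to near-identical genes and can share signal. Klf1, an erythroid transcription factor, was dim, with 1 array well above background, and had a log2 fold change of -0.44, and Alas2 and Rhag were not well above background on any. The summed level of the erythroid list was 12.45 to 13.19 in Young and 13.17 to 13.66 in Young-Abx, so the groups overlapped. Without Young C, 2 of the 4 (Epor and Tfrc) were called, without any other of the 6 arrays 0 were, and without the block 1 (Epor) was.

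Collagens and other genes of stromal cells rose from near background. Marrow stroma makes the extracellular matrix and the niche factors of blood formation. Of 11 measured stromal and endothelial markers, 5 rose and 0 fell, against 1.11 and 0.264% of all genes, with a median log2 fold change of 1.35, and 3 of the 11 were well above background on all 6 arrays. The summed level of the list was 9.44 to 9.80 (log2) in Young and 11.22 to 11.42 in Young-Abx.

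Dcn, the small proteoglycan decorin, had log2 signals of 4.07, 4.10 and 4.81 in Young and of 8.29, 8.12 and 8.65 in Young-Abx, a log2 fold change of 4.03 ± 0.21 (SE, adjusted p = 0.000487 by limma). Col1a2, a chain of type I collagen, had signals of 5.32, 5.10 and 5.91 in Young and of 8.56, 8.35 and 9.40 in Young-Abx, a log2 fold change of 3.33 ± 0.17 (SE, adjusted p = 0.000437). Col1a1, the other chain, had signals of 2.58, 2.75 and 2.01 in Young and of 6.65, 6.34 and 7.72 in Young-Abx (log2 fold change 4.46 ± 0.60 SE, adjusted p = 0.0161), and its 2 other probes rose by 2.22 and 3.08. These Young signals lay below the lowest signals well above background on their arrays (3.47, 3.38 and 5.43), so the size of this fold is not settled. The groups were far apart for all 3 genes, with at most 2 of 3 Young arrays well above background.

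Pdgfrb, a receptor of pericytes and fibroblasts, was well above background on all arrays, with signals of 5.30, 5.66 and 6.45 in Young and of 8.18, 8.06 and 8.56 in Young-Abx (log2 fold change 2.46 ± 0.24 SE, adjusted p = 0.00388). Col3a1 was not well above background on any Young array and was at least 2.73-fold higher in Young-Abx (adjusted p = 0.0229). Pdgfra, Lum and Cdh5, which also define stroma or endothelium, were well above background on 0, 1 and 1 of the 6 arrays, and the stem cell factor gene Kitl had a log2 fold change of -1.05 that did not pass. The calls of Dcn, Col1a2 and Pdgfrb held under every omission of an array, and without Young A, Young-Abx A or Young-Abx B these 3 were the only ones of the 5. Without the block, Col1a1, Col1a2 and Dcn were called.

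Other matrix genes among the called probes, chosen after their values were seen, included the matricellular gene Sparc (signals of 4.78 to 5.04 in Young and of 8.23 to 8.63 in Young-Abx at its brighter probe, and a log2 fold change of 1.75 at the other), Mgp (log2 fold change 3.58), the collagens Col6a1 (at least 3.48-fold higher) and Col18a1 (log2 fold change 2.79), the laminin chain Lamb1 (at least 2.75-fold higher), the collagen cross-linking enzyme Lox (log2 fold change 2.46), Fbln2 (log2 fold change 1.73) and the metalloproteinase inhibitor Timp3 (log2 fold change 2.41). Timp3 was well above background on all 6 arrays, with log2 signals of 9.52 to 9.85 in Young and of 11.73 to 12.35 in Young-Abx. Whether cells of the platelet, erythroid or stromal lines took part in the other differences was not tested.

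Of the 15 largest rises, 8 were of genes not well above background on any Young array. Among 250 genes that rose, did not overlap and were measured above background on the 3 arrays of either group, the 15 with the largest fitted log2 fold change were BC018473, Atp6v0e2, BC023719, Hal, Olfr224, Hspb8, Ccn2, Aqp1, 4933411E08Rik, Fat1, Col1a1, Zfp985, Evc2, Mmel1 and Tie1. For the 8 dim in Young the fitted value rests on signals near background, so their place in this order is not settled, and they are given below as lower bounds. The calls of 11 of them held under every omission of an array, those of Col1a1, Zfp985, Mmel1 and Tie1 did not, and 12 were called without the block (all but Aqp1, Zfp985 and Tie1).

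BC018473 was not well above background on any Young array, with log2 signals of 2.45, 1.88 and 1.71, and had 10.00, 9.91 and 9.03 on Young-Abx A, B and C. It was at least 47.0-fold higher in Young-Abx (adjusted p = 0.000726 by limma). Hal, which encodes histidine ammonia-lyase and so starts histidine breakdown, was well above background on all 6 arrays, with signals of 6.39, 6.26 and 7.01 in Young and of 12.11, 12.09 and 11.64 in Young-Abx. Its log2 fold change was 5.39 ± 0.31 (SE, adjusted p = 0.00064), a 42.1-fold difference. Hal was the only gene of the 15 that was well above background on all 6 arrays.

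Atp6v0e2, a subunit of the proton pump that acidifies endosomes, had signals of 4.16, 4.27 and 3.31 in Young and of 10.52, 10.47 and 9.88 in Young-Abx (log2 fold change 6.38 ± 0.45 SE, adjusted p = 0.00111). Aqp1, a water channel of red cells and endothelium, had signals of 5.19, 5.13 and 1.79 against 9.66, 9.41 and 6.94 (log2 fold change 4.63 ± 0.29 SE, adjusted p = 0.000726). Both groups lost signal on the C array for Aqp1. The Young C signals of Atp6v0e2 (3.31) and Aqp1 (1.79) lay below the lowest signal well above background on that array (5.43). The size of their differences on the C arrays was thus not measured, and their fitted folds rest in part on it. The small heat shock protein gene Hspb8 was at least 9.16-fold higher, the matricellular growth factor gene Ccn2 at least 9.88-fold, the cadherin Fat1 at least 5.06-fold and Evc2, of the primary cilium, at least 4.56-fold. For BC023719, Olfr224 and 4933411E08Rik the lower bounds were 9.74-fold, 10.7-fold and 6.93-fold. Second probes of Fat1 and Evc2 were dim and had log2 fold changes of -0.53 and -0.60. Tie1, a receptor of endothelium, had signals of 2.90, 3.90 and 1.85 in Young and of 7.04, 7.29 and 7.08 in Young-Abx, and was called in 0 of the 6 omissions of an array.

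**Figure D3:**
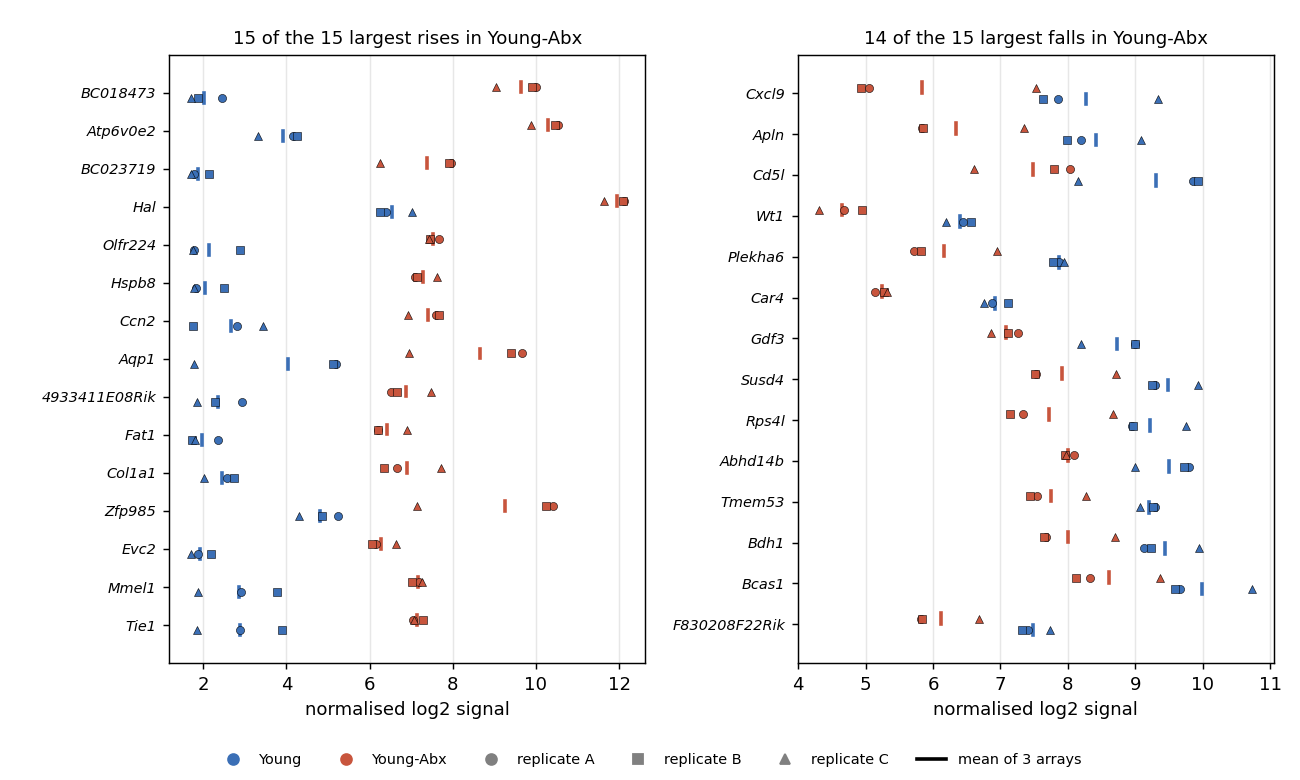
Normalised log2 signal (x axis) of the 15 genes with the largest rise (left) and 14 of the 15 with the largest fall (right) on the 3 Young arrays (blue) and the 3 Young-Abx arrays (red), with symbols for replicates A, B and C and a bar at the mean. The groups do not overlap because the choice required it; 8 of the risen genes were not well above background on any Young array, so their blue points show no measured level, while the fallen genes were above background on every Young array.

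Some risen genes lay in the same regions. With at most 1 Mb between successive called genes, these formed 13 runs of 3 or more that moved in the same direction, and in all 13 they rose. A run ended at any change of direction and 297 of the 372 called genes rose, which favours runs of rises. At the brightest probe, 1.11% of all genes rose and 0.264% fell. The number of runs that the spacing of genes alone would give was not tested. The longest run held 10 genes on chromosome 4, among them Zfp990, Zfp600, Zfp981, Rex2, Zfp982, Zfp985 and Zfp979, which belong to a family of similar zinc finger genes and can share signal on an array, and then Fbxo2, Masp2 and Ctnnbip1. The run spanned 4007 kb, a stretch with 135 genes of the reference table, the members of the run included. Zfp979 had log2 signals of 7.83, 7.68 and 9.14 in Young and of 11.66, 11.52 and 12.61 in Young-Abx.

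A run of 6 genes on chromosome 17 lay in the region of the major histocompatibility complex (C2, Mpig6b, Ly6g6f, Gm6034, BC023719 and Gm8909), where non-classical class I genes are near copies of each other. Gm8909, such a gene, had signals of 7.80, 7.76 and 5.19 in Young and of 11.76, 11.82 and 9.20 in Young-Abx, and H2-T18, chosen after its values were seen, was at least 3.08-fold higher in Young-Abx. A run on chromosome 5 was the platelet and neutrophil chemokine cluster Cxcl5, Ppbp and Cxcl3, which lay within 27 kb. Other runs were Hid1, Trim47, Cygb, St6galnac2 and BC018473 on chromosome 11 and Plekhb1, Arhgef17, P2ry2, Folr2 and Lrrc51 on chromosome 7.

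Falls were led by a chemokine and a peptide hormone. Among 46 genes that met the same conditions, the 15 with the largest fall included Cxcl9, Apln, Cd5l, Wt1, Plekha6, Car4, Gdf3, Susd4, Rps4l, Abhd14b, Tmem53, Bdh1, Bcas1 and F830208F22Rik, from -2.44 to -1.37 on the log2 scale. On each Young array all 15 were well above background. Under every omission of an array, the calls of Apln and Susd4 held and those of the other 12 genes named here did not.

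Cxcl9, a chemokine induced by interferon-γ that attracts T cells, had log2 signals of 7.85, 7.64 and 9.34 in Young and of 5.05, 4.93 and 7.53 in Young-Abx. It fell by 2.44 ± 0.37 (SE, adjusted p = 0.028 by limma), and the call held in 1 of the 6 omissions of an array (without Young-Abx C). Apln, the ligand of the apelin receptor, had signals of 8.20, 7.98 and 9.08 against 5.84, 5.85 and 7.35, a log2 fold change of -2.07 ± 0.18 (SE, adjusted p = 0.00281). Cd5l, a scavenger protein of tissue macrophages, had signals of 9.85, 9.93 and 8.15 in Young and of 8.03, 7.79 and 6.61 in Young-Abx (log2 fold change -1.84). Its Young C array lay only just above Young-Abx A.

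Gdf3, a TGF-β family ligand, had log2 signals of 7.26, 7.11 and 6.86 in Young-Abx, below its lowest Young array at 8.20 (log2 fold change -1.65 ± 0.19 SE, adjusted p = 0.00773), and its second probe fell by 0.88. Susd4, a complement regulator, had 9.30, 9.25 and 9.92 against 7.52, 7.52 and 8.71 (log2 fold change -1.57). Of the 15, 1 (Tmem53) was called without the replicate block.

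Called falls outside that rule, chosen after their values were seen, included lipoprotein lipase Lpl (-1.03 and -1.14 at 2 probes), the decoy receptor Il1r2 (-1.33), adrenomedullin Adm (-1.20), the co-stimulatory receptor Tnfrsf4 (-0.98), and the retinoic acid genes Rarb (-1.14) and Cyp26b1 (-1.23). Aldh1a1, which makes retinoic acid, went the other way, with log2 signals of 7.90 to 8.77 in Young and of 11.13 to 11.53 in Young-Abx (log2 fold change 3.08).

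Chemokines changed in both directions. Of 26 measured chemokines, 3 rose and 1 (Cxcl9) fell, against 1.11 and 0.264% of all genes. Ccl8, which attracts monocytes, had log2 signals of 10.59, 10.46 and 10.77 in Young and of 12.53, 12.38 and 12.53 in Young-Abx, a log2 fold change of 1.87 ± 0.15 (SE, adjusted p = 0.00186 by limma), and it was the member whose call held in all 6 omissions and without the block. Cxcl5 and Cxcl3, neutrophil attractants that bind CXCR2, had signals of 7.80, 7.70 and 6.83 against 10.01, 9.90 and 9.53, and of 10.36, 10.29 and 9.93 against 11.70, 11.91 and 11.39. Cxcl5 had a log2 fold change of 2.37 (adjusted p = 0.0489), called in 0 of the 6 omissions, and Cxcl3 one of 1.47 (adjusted p = 0.0234), called without Young C. Cxcl13, a B cell attractant, was not well above background on any Young array and had 6.47, 6.12 and 5.58 in Young-Abx, at least 3.91-fold higher, without passing the test (adjusted p = 0.128).

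The bright chemokines Ccl5 and Ccl2 had log2 fold changes of -0.05 and -0.15, and the IL-4 induced Ccl17 had -0.74 (adjusted p = 0.183). In the list as a whole, 7 of the 26 did not overlap on the higher side and 3 on the lower side, against 6.27 and 4.45% of all genes. At an unadjusted p under 0.05 and the same fold threshold, 7 chemokines were higher and 3 lower, against 5.02 and 3.7% of all genes.

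Among 23 chemokine receptors and migration genes, 0 rose and 1 fell, against 1.11 and 0.264% of all genes. Ccr2, the monocyte receptor for CCL2, had log2 signals of 12.19, 12.16 and 9.41 in Young and of 10.96, 10.98 and 8.08 in Young-Abx. The groups overlapped because of the C arrays, and the letter pairs differed by about the same amount (log2 fold change -1.25 ± 0.19 SE, adjusted p = 0.0289), but the call was lost under every omission of an array. Cx3cr1, the fractalkine receptor, had signals of 10.26, 10.11 and 11.35 against 11.40, 11.47 and 12.58 (log2 fold change 1.24, adjusted p = 0.136). Ccr7 had a log2 fold change of -0.15.

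In the lists for LPS sensing (18 genes), NF-κB (17), inflammatory cytokines (19), tolerance-associated genes (27), antigen presentation (24), interferon response (27) and the IL-4 response (19), 0 genes passed in either direction by limma. Without adjustment, the counts past the fold threshold were 1 higher and 0 lower for LPS sensing, 0 and 0 for NF-κB, 3 and 0 for cytokines, 1 and 6 for tolerance, 1 and 6 for antigen presentation, 0 and 3 for the interferon response and 0 and 4 for the IL-4 response, against 5.02% higher and 3.7% lower over all genes. On slide 1 alone, with 2 arrays against 2, the calls in the same order were 0, 0, 1 higher and 1 lower, 3 lower, 2 lower, 3 lower and 4 lower. That fit called 1263 of 56605 probes higher and 749 lower. With so few arrays, a miss does not show that a gene was alike in both groups.

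Among LPS sensing genes, Cd14, the LPS co-receptor, had log2 signals of 12.97, 12.94 and 14.32 in Young and of 13.61, 13.74 and 14.61 in Young-Abx (log2 fold change 0.58, adjusted p = 0.159). Tlr4 and Myd88 had log2 fold changes of 0.09 ± 0.45 and -0.54 ± 0.24 (SE). The NF-κB subunit genes Rela, Rel and Nfkb1 had -0.15, -0.06 and -0.35, and the inhibitor Nfkbia 0.20. None of these passed.

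Among cytokines, Il12a, the p35 chain of IL-12, had log2 signals of 4.86, 5.20 and 6.30 in Young and of 7.46, 7.38 and 7.60 in Young-Abx, with a log2 fold change of 2.03 ± 0.38 (SE) and an adjusted p of 0.0651. The groups did not overlap, but the threshold was missed. Il12b, the p40 chain shared with IL-23, had a log2 fold change of -0.09, Il6 0.08, Tnf -0.33 and Il1b 0.72, and Il10, dim on 2 of the 6 arrays, 0.31. Il6 had signals of 10.75, 10.60 and 11.03 in Young and of 10.84, 10.62 and 11.17 in Young-Abx, so each letter pair was within 0.14.

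Among tolerance-associated genes, Pdcd1lg2, which encodes PD-L2, had signals of 12.58, 12.57 and 11.81 in Young and of 11.20, 11.12 and 11.18 in Young-Abx (log2 fold change -1.15, adjusted p = 0.0716). Tgfb3 had 6.44, 6.18 and 6.70 against 5.30, 5.02 and 5.82 (log2 fold change -1.06, adjusted p = 0.059), and Aldh1a2, the retinal dehydrogenase of DCs, had -1.06 (adjusted p = 0.206). The groups did not overlap for any of the 3 genes, and none passed. Cd274, which encodes PD-L1, had a log2 fold change of 0.66, Irf4 -0.41, Irf8 0.30, Btla -0.18, Aldh2 0.05, Ido1 -0.19, Arg1 0.16, Nos2 -0.45 and Tgfb1 0.08. These values are at the brightest probe, and the other, dimmer probe of Irf4 had -2.50 without passing.

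In antigen presentation, 18 of 24 fold changes were negative, with a median of -0.26. Of the 24, 7 did not overlap on the lower side and 0 on the higher side, against 4.45 and 6.27% of all genes. The class II loading gene H2-DMb1 had log2 signals of 14.38, 14.46 and 14.51 in Young and of 12.84, 12.84 and 12.88 in Young-Abx. Its log2 fold change was -1.60 ± 0.48 (SE, adjusted p = 0.277 by limma), with the spread estimated over all 12 arrays. H2-Ob, another loading gene, had -1.89 (adjusted p = 0.393), and its groups did not overlap either. H2-Ab1, the class II beta chain, had 0.75 (adjusted p = 0.0843) at its brightest probe and -0.42 to 0.29 at the 3 others. The co-stimulatory genes Cd80, Cd86 and Cd40 had -0.14, -0.47 and -0.10, and Cd86 signals were 12.16, 12.07 and 12.05 in Young and 11.70, 11.65 and 11.52 in Young-Abx. In the interferon list the guanylate-binding proteins Gbp2 and Gbp5 had -1.11 and -0.79, and Isg15 had 0.32.

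Of 37 measured proliferation genes, 35 had negative fold changes and none passed the test by limma. The median was -0.49 on the log2 scale (-0.58 on slide 1 and -0.26 on slide 2). A total of 14 were lower at an unadjusted p under 0.05 past the fold threshold, against 3.7% of all genes. Mcm5, of the replicative helicase, had signals of 9.49, 9.58 and 9.91 in Young-Abx, below its lowest Young array at 10.36 (log2 fold change -0.79, adjusted p = 0.209). Mki67 had a log2 fold change of -0.29. On slide 1 alone, 7 of the 37 were called lower, in a fit that called 749 of 56605 probes lower.

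Metabolic lists held 0 called genes by limma. Of 20 glycolysis genes, 17 had negative fold changes, with a median of -0.18, of 30 genes of oxidative phosphorylation 12, with a median of 0.02, and of 18 sterol synthesis genes 16, with a median of -0.25. At an unadjusted p under 0.05 past the fold threshold, 1, 0 and 0 genes of the 3 lists were higher and 0, 0 and 1 lower. Over all genes these shares were 5.02% higher and 3.7% lower. Slc2a3, the glucose transporter GLUT3, had log2 signals of 11.18, 11.25 and 11.45 in Young and of 11.75, 12.05 and 12.05 in Young-Abx (log2 fold change 0.66, adjusted p = 0.175).

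**Figure D4:**
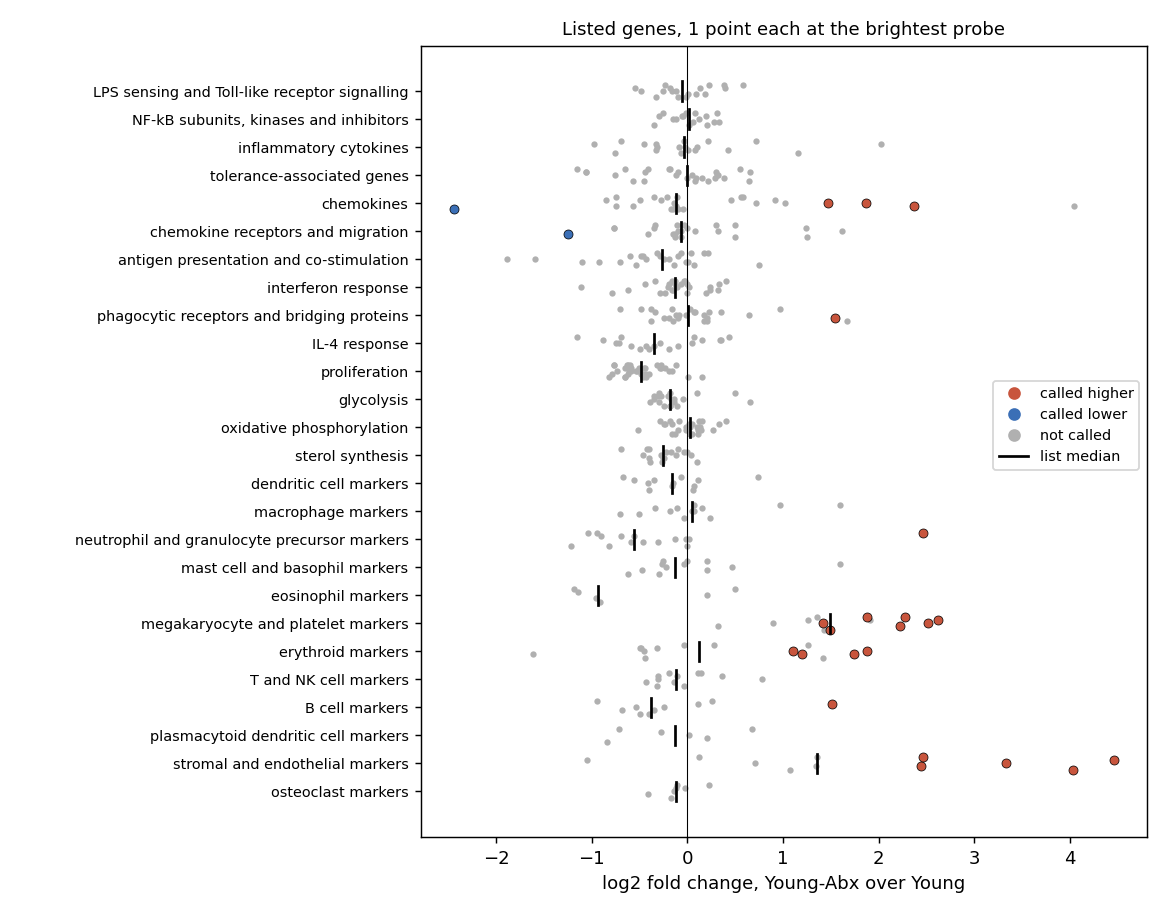
Log2 fold change of Young-Abx over Young (x axis) for each measured gene of the 26 gene lists (rows), at the brightest probe of the gene, with the median of the list as a black bar. Called genes (red higher, blue lower) stand mainly in the platelet, erythroid and stromal lists and among the chemokines, and the proliferation genes lie mostly between -0.82 and 0.15 with none called.

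Phagocytic receptors held 26 measured genes, of which Itgb3, described above, rose and 0 fell, against 1.11 and 0.264% of all genes. The apoptotic cell receptors Axl and Mertk had log2 fold changes of -0.38 and -0.34, the bridging protein Mfge8 0.64, and the scavenger receptor Cd36 0.35, and none of these passed.

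Granulocyte markers mostly had negative fold changes. Of 15 neutrophil and precursor markers, 13 had negative fold changes, with a median of -0.56, and the summed level was 15.23 to 15.97 in Young and 14.66 to 15.59 in Young-Abx. The member that passed was Camp, the antimicrobial peptide cathelicidin, which rose, with signals of 7.23, 7.32 and 7.76 in Young and of 9.78, 9.73 and 10.19 in Young-Abx (log2 fold change 2.47 ± 0.26 SE, adjusted p = 0.00598). This call was lost without Young A, Young-Abx A or Young-Abx B. Over all genes at their brightest probe, 1.11% rose and 0.264% fell. Mpo, the granule enzyme of precursors, had -1.21 (adjusted p = 0.333). On slide 1 alone, 6 of the 15 were called lower and 1 higher, in a fit that called 749 of 56605 probes lower and 1263 higher. The 6 eosinophil markers had a median of -0.94 and a summed level of 11.67 to 11.79 against 10.60 to 10.97, with 0 called (4 lower on slide 1 alone), and Siglecf had -1.18 (adjusted p = 0.0778).

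Among lymphoid markers 1 gene passed, against 1.11% of all genes rising and 0.264% falling. Of 10 B cell markers, it was Jchain, the joining chain of secreted antibodies, which rose, with signals of 10.12, 10.02 and 10.12 against 11.60, 11.55 and 11.65 (log2 fold change 1.51 ± 0.16 SE, adjusted p = 0.00615), while Cd79a had -0.25 and did not pass. Of 12 T and NK cell, 12 mast cell and basophil, 6 plasmacytoid DC, 13 macrophage and 7 osteoclast markers, 0 passed by limma, and their medians were -0.12, -0.13, -0.13, 0.04 and -0.12. At an unadjusted p under 0.05 past the fold threshold, 0, 1, 1, 0 and 0 of them were higher and 0, 0, 2, 2 and 0 lower. Over all genes these shares were 5.02% higher and 3.7% lower.

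Young-Abx was also set against the 3 Old arrays in the same fit, a comparison that shares the Young-Abx arrays with the one above. There, 1 of 56605 probes (0.00177%) was called, that of the chemokine Ccl1. The C arrays of these 2 groups lay on different slides.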

How the data were processed

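RNA of LPS-stimulated bone marrow-derived DCs was hybridised with 1 dye to Agilent arrays. Per spot, the authors deposited an intensity from Feature Extraction (version 10.5 in the submitters' processing notes), with background subtracted by the software and no normalization between arrays, and a table of 46302 probes with log2 values that match quantile-normalized log2 median signals without background subtraction. Here control spots were left out, 1068 outlier readings were set to missing, log2 intensity was quantile normalized over 12 arrays, and spots were averaged to 56605 probes, of which 35405 were named (24232 symbols) through accessions in a RefSeq table of GRCm38.p6 (the arrays' headers give mm9), which also gave the order of genes. R 4.3.3 and limma 3.58.1 (lmFit, eBayes) fitted 4 group means and the replicate letter as a block to all arrays. Called means an adjusted p (Benjamini-Hochberg over all probes) up to 0.05 with a log2 fold change of 0.5 or more, up or down. All p are two-sided. Exact permutation of 3 against 3 arrays cannot reach p under 0.1 and was not used. The arrays' number limits the precision.

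The block follows the letters of the sample titles. Deviations from the group means correlated by 0.581 (A), 0.621 (B) and 0.711 (C) between same letters, by 0.529 and 0.570 between A and B, and by -0.659 to -0.613 between C and the others. What these values show of a pairing is thus mostly the slide of C. Folds "at least" set the bright group against, on each dim array, the higher of its own signal and the lowest signal well above background. Named were the 15 largest rises and falls among named called probes with non-overlapping groups and all 3 arrays of either group well above background, plus any gene of 26 lists at its brightest probe, and some of these genes are not reported here. Members, lists and rule were chosen with earlier results of these data known. The normexp correction (offset 50) used the median signal, not the mean signal as planned. Alternatives were other blocks, samples, scalings, filters and omissions. The steps were tested on simulated data.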

Additional observations from a re-analysis of the deposited data

How the results depend on the processing

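The direction of the 52 genes or probes followed individually was the same under all 23 alternatives, but sizes and counts moved. All 52 were called, with the same sign on slide 1 and slide 2, and the alternatives use the same arrays. This choice favours an unchanged direction. On slide 2 alone, with 1 array against 1 and no test, 16 of the 52 moved by more than the spread between arrays, among them Hal (4.63), Col1a1 (5.71), Gp9 (1.71) and Tmem53 (-0.80). Against 557 called probes (462 higher, 95 lower, 6 genes of the 14 functional lists), the fit with no replicate block gave 195 (187, 8 and 1), the slide as block 1156 (832, 324 and 17) and the letter as a random replicate block 596 (521, 75 and 8). The 6 arrays alone gave 127 (124, 3 and 1) with the replicate block and 139 (133, 6 and 3) with no replicate block, and slide 1 alone, with 2 arrays against 2, 2012 (1263, 749 and 38). The shift to the 75th percentile gave 651 (534, 117 and 10) and moved the median of all probes to -0.13, so that changes there are relative to it. The normexp correction gave 946 (667, 279 and 21), the log2 table of the authors 1031 (711, 320 and 24), probes well above background 1074 (719, 355 and 20), the intensity trend 777 (585, 192 and 14), and unadjusted p 4432 (2333, 2099 and 57). The share of higher calls was 82.9% with the settings reported, 70.5% with normexp and 69.0% with the authors' table. It ranged further with the model and threshold, from 52.6% at unadjusted p and 62.8% on slide 1 alone to 95.9% with no replicate block. Chosen after the data were seen, slide 1 with all 4 groups gave 3477 (1920, 1557 and 76), and averages of A and B gave 0 (0, 0 and 0) with and without the replicate block. Averages over the probes of a gene gave 458 (386 and 72) and kept outlier spots 552 (455 and 97). Leaving out 1 of the 6 arrays gave 139 to 391 called probes, 134 to 325 higher, 5 to 66 lower and 1 to 5 listed genes. The cause of these moves was not tested. Of the 52, 31 were not called without the replicate block, 43 on the 6 arrays alone with it, all 52 with A and B averaged, and 12 to 31 on leaving out 1 array. On the C arrays, 44.0 to 46.0% of spots were well above background, which limits dim genes. Folds against a group not well above background on any of its arrays are given as lower bounds. Where only some arrays of a group were, as in Young for Col1a1, Atp6v0e2 and Aqp1, the fitted fold is printed and rests in part on signals near background.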

Other observations

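Some called genes form pairs whose products work together or share a locus, and they were picked after their values were seen. The subunits of the nitric oxide receptor guanylate cyclase, Gucy1a1 and Gucy1b1, had log2 signals of 6.34 to 6.54 and 7.67 to 8.44 in Young and of 9.34 to 9.88 and 10.86 to 10.91 in Young-Abx (log2 fold changes 3.25 and 2.93). The urea transporters Slc14a1 and Slc14a2 both rose, Slc14a1 by 2.39 and 2.52 on the log2 scale at 2 probes and Slc14a2 to at least 4.40-fold. Of the imprinted genes Snrpn and Ndn, Snrpn rose by 2.37 and Ndn was at least 4.06-fold higher. The stem and progenitor cell regulators Meis1, Zbtb16 and Mycn rose by 1.23, 1.72 and 4.18. The atypical chemokine receptor Ackr1, found on red cells and endothelium, rose by 3.38 and 3.30 at 2 probes.

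For the 15 genes with the largest rise, the levels in all 4 groups were compared on slide 1. In linear normalised signal, the mean of Young-Abx A and B was 76.1 to 119% of the mean of Old A and B (median 85.2%), that of Old-LP was 4.82 to 24.2% (median 8.20%) and that of Young was 0.365 to 8.34%. For the genes not well above background on any Young array, such as BC018473 at 0.365%, the Young percentage is not a measured level. For the 15 genes with the largest fall, Young-Abx was at 123 to 497% of Old (median 173%), Old-LP at 280 to 2733% (median 570%) and Young at 351 to 3359%. The highest values are those of Cxcl9, whose log2 signals on Old A and B were 2.79 and 2.56. These lay below the lowest signal well above background on those arrays (3.42 and 3.61), as did those of Wt1 (2.92 and 3.55). The percentages of both genes therefore rest on no measured Old level. The genes were chosen for the difference between Young-Abx and Young, and the percentages against Old are given as values, with no test. Whether this order bears on what the Young-Abx arrays measure was not tested.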
